A study of Mus musculus with 6 samples.

Results

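The molecular motors that walk along microtubules were followed in the hippocampus (HIPP), the prefrontal cortex (PFC) and the left ventricle (LV) of CHF mice (ischemic chronic heart failure) and of mice after a sham operation. They are the 71 genes, of 35485 in the tables, whose symbols name a kinesin (Kif or Kifc), a kinesin light chain (Klc1 to Klc4), a cytoplasmic dynein chain (Dync or Dynl) or a dynactin subunit (Dctn1 to Dctn6). Membership rests on the symbols alone, but the group was chosen with earlier results of these data known. The study had already reported Kif5b as lower in HIPP of CHF mice. All animals were male C57BL/6N mice, 6 to 9 weeks old when obtained. CHF mice had a permanent ligation of the left anterior descending coronary artery and an infarct of at least 30% of the ventricular circumference. Sham mice had the chest opened without a suture to the artery. Tissue was taken 8 weeks after the operation, and the RNA of 3 CHF mice or of 6 sham mice was pooled in equal parts, which gave 1 library per tissue and group and 6 libraries in all. A CHF library therefore averages only 3 animals, and no difference between CHF and sham can be set against a spread between mice.

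Kinesins carry cargo mostly towards the plus ends of microtubules, and cytoplasmic dynein with its activator dynactin carries it towards the minus ends. In axons this separates outward from returning traffic of vesicles, mitochondria and signaling endosomes. In dividing cells a further set of kinesins builds the spindle and drives cytokinesis. Some members, such as Kif5a and Kif1a, are known as neuronal motors, and others, such as Kif5b, are found in most cell types.

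The libraries held 17.2 to 28.2 M total gene reads, of which 89.8 to 92.0% were unique to 1 gene. The 10 most abundant features took up 17.63% of reads in CHF and 28.05% in sham LV, and 4.12 to 4.95% in the brain libraries. The markers of cardiomyocytes (Myh6, 264369 reads in CHF and 423662 in sham) were found in LV, and those of neurons (Slc17a7, 48107 to 62648 reads) in the brain. In LV, 8 of 8 fibroblast and matrix markers and 5 of 6 measured macrophage markers were higher in CHF by the fold rule given below. The share of all measured genes higher by that rule was 10.5%. The median log2 ratio of 7 measured cardiomyocyte markers was -0.52, beside 0.22 for all measured genes. In bulk tissue, fewer cells of a type and less RNA per cell cannot be told apart.

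Motors with 100 or more unique gene reads in each of the 2 pools of a tissue were called measured. Those whose RPKM (reads scaled by gene length and library size) in CHF differed from sham by a log2 ratio of at least 0.9, upwards or downwards, were called regulated. The fold limit and the minimum of 100 reads are those of the study, which does not state whether 1 pool or both had to reach it. Both were asked for here, and with either pool the counts of higher and lower motors were the same in HIPP and PFC but not in LV. They gave 45 measured motors in HIPP, 43 in PFC and 33 in LV. In HIPP 1 motor was lower in CHF, Kif5b, and 0 were higher, where 0.189% of all 11086 measured genes were regulated, 0.0541% higher and 0.135% lower. In PFC 0 of the 43 were regulated, where 0.0558% of all measured genes were, 0.0093% higher and 0.0465% lower. In LV 1 motor was higher, Dynll1, and 0 were lower, where 12% of all 9771 measured genes were regulated, 10.5% higher and 1.54% lower. The median log2 ratio of the motors was -0.01 in HIPP, -0.04 in PFC and 0.19 in LV, beside 0.03, -0.01 and 0.22 for all measured genes of these tissues. In HIPP 40 of the 45 motors, in PFC 42 of 43 and in LV 20 of 33 lay within 0.3 of equality, a count not made over all measured genes. The plot of log2 ratios shows the measured motors of each tissue with their counting intervals.

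**Figure D1:**
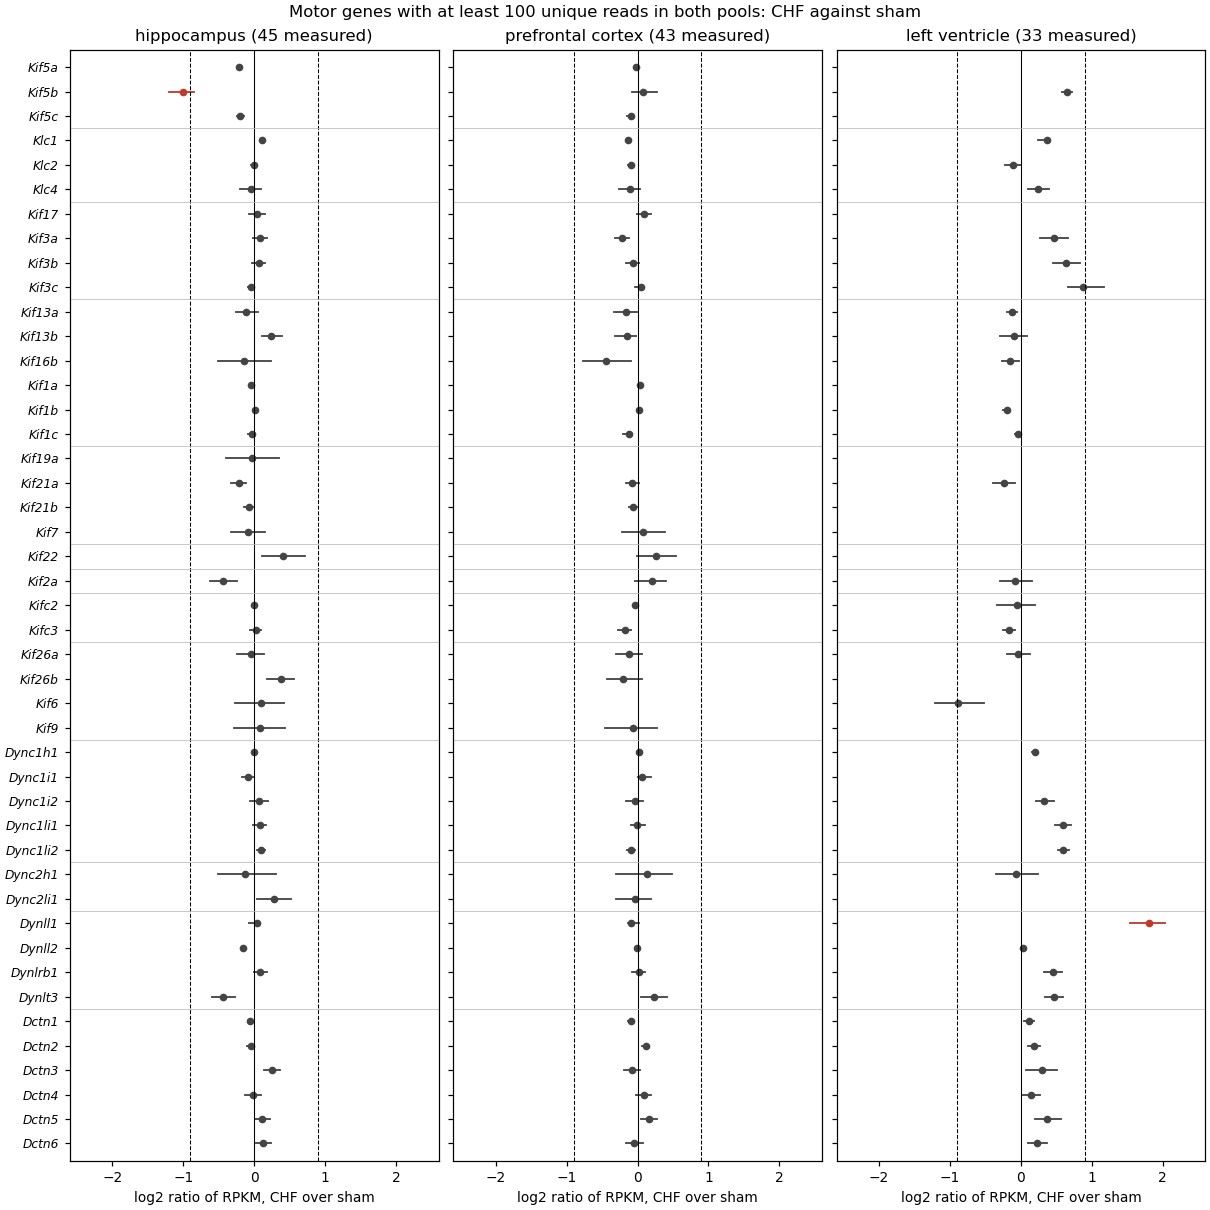
Log2 ratios (RPKM in CHF over RPKM in sham) of the 45 motor genes measured in at least 1 tissue, by tissue (columns) and motor group (thin lines between rows). Points are the ratios, bars the exact 95% intervals of the unique reads (counting error only, 1 library per group), dashed lines the thresholds at -0.9 and 0.9, and red marks Kif5b at -1.003 in HIPP and Dynll1 at 1.80 in LV.

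Kinesin-1 is the conventional transport kinesin, a pair of heavy chains (Kif5a, Kif5b or Kif5c) that bind cargo largely through light chains. The brain and heart libraries drew on different heavy chains. Kif5a, the neuronal heavy chain, had an RPKM of 0.115 in CHF and 0.0908 in sham LV, against 52.9 and 61.6 in CHF and sham HIPP and 83.4 and 84.3 in CHF and sham PFC. Kif5b, the heavy chain of most cell types (chromosome 18 from 6201005 to 6241524 of GRCm38), had an RPKM of 4.93 in CHF and 3.16 in sham LV, against 0.372 and 0.747 in CHF and sham HIPP and 0.596 and 0.566 in CHF and sham PFC. Kif5c, the other neuronal heavy chain, had an RPKM of 0.0232 in CHF and 0.0183 in sham LV, against 1.47 to 2.08 in the 4 brain libraries. For each of the heavy chains, the LV and brain libraries did not overlap. The share of all genes with this property was not counted, and 75.6% of all features differed between LV and brain in the test given below. Of the summed RPKM of the heavy chains, Kif5b made up 97.3% in CHF and 96.7% in sham LV, and Kif5a made up 96.2 to 97.0% in the brain libraries. These lengths include introns, which lowers the level of long genes such as Kif5c. Per kilobase of the longest transcript the shares were 96.4% and 95.6% for Kif5b in CHF and sham LV, and 89.5 to 91.2% for Kif5a in the brain.

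In edgeR's quasi-likelihood test between LV and the mean of both brain regions, with Benjamini-Hochberg adjustment over 17411 features, Kif5b was higher in LV by a log2 difference of 2.97 (SE 0.31, adjusted p = 0.000767). Kif5a was lower in LV (log2 difference -9.25, SE 0.31, adjusted p = 4.92e-05), and Kif5c had a log2 difference of -6.28 (SE 0.18, adjusted p = 3.96e-05). The light chains Klc1 and Klc2, which link kinesin-1 to its cargo, were lower in LV too, with log2 differences of -2.42 and -2.35 (SE 0.17 and 0.16, adjusted p = 0.000233 and 0.000213). Klc2 had an RPKM of 6.61 in CHF and 7.17 in sham LV, against 34.7 to 45.1 in the brain. Klc4 was higher in LV (log2 difference 0.36, adjusted p = 0.0289). Klc3 had 0 to 69 unique reads per library, overlaps Ercc2 on the other strand and was not past the threshold (log2 difference -1.54, adjusted p = 0.219).

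**Figure D2:**
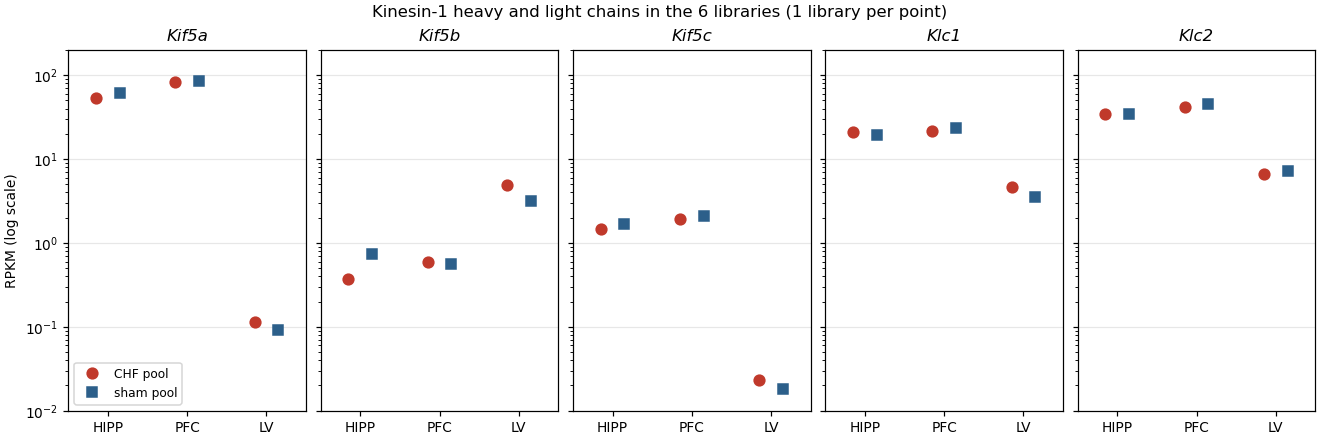
RPKM (log scale) of the kinesin-1 heavy chains Kif5a, Kif5b and Kif5c and the light chains Klc1 and Klc2 in HIPP, PFC and LV, with circles for the CHF pool and squares for the sham pool (1 library per point). In CHF and sham LV Kif5a lies at 0.115 and 0.0908 and Kif5b at 4.93 and 3.16, and in HIPP the Kif5b points lie at 0.372 in CHF and 0.747 in sham.

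Kif5b was also the single motor regulated in the brain. It had 413 unique reads in CHF and 742 in sham HIPP, a log2 ratio of RPKM of -1.003 (95% counting interval -1.19 to -0.84). In PFC it had 481 reads in CHF and 543 in sham (log2 ratio 0.08, interval -0.08 to 0.28). In LV it had 4318 reads in CHF and 2146 in sham (log2 ratio 0.64, interval 0.57 to 0.72). The HIPP interval overlaps neither of the other intervals, and whether the tissues differ beyond the spread between mice was not tested. The neuronal heavy chains were not past the threshold in HIPP, with log2 ratios of -0.22 for Kif5a and -0.20 for Kif5c. Kif2a, a kinesin that depolymerizes microtubule ends, and Dynlt3, a dynein light chain, had the next lowest ratios in HIPP, -0.44 and -0.43, and both had ratios above 0 in PFC (0.21 and 0.23). Transcripts of Kif5b, Kif2a and Dynlt3 have 41.1, 38.6 and 38.9% G and C, against a median of 50.7% over 10224 measured genes of HIPP. With the trend of the ratios on this content taken out, Kif5b was at -0.93, Kif2a at -0.33 and Dynlt3 at -0.32. The 10 neuron markers of HIPP had log2 ratios of -0.28 to 0.05, and their summed level was 6867 CPM in CHF and 7438 in sham (CPM, unique reads scaled to the library's total of unique reads). Their part in the ratio of Kif5b was not tested.

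No other motor of HIPP passed the threshold. Kif21a, a kinesin of axonal growth and microtubule stability, had a log2 ratio of -0.22. At the upper end stood Kif22, which binds chromosome arms in mitosis, with 0.40 (222 reads in CHF and 148 in sham), and Kif26b, an atypical kinesin, with 0.37 (575 and 394 reads). They were followed by Dync2li1, a chain of the dynein of cilia (0.28), Dctn3, a small dynactin subunit (0.25), and Kif13b, an endosomal kinesin (0.24). In PFC the range was narrower. Its lowest ratios were those of the endosomal kinesin Kif16b with -0.44 (121 reads in CHF and 196 in sham), of Kif3a (-0.22), of Kif26b (-0.20) and of Kifc3 and Kif13a (both -0.17). Its highest were those of Kif22 (0.26), Dynlt3 (0.23), Kif2a (0.21), Dctn5 (0.16) and Dync2h1 (0.13). Dync2h1, the heavy chain of the ciliary dynein, lies just above the read minimum, with 107 reads in CHF and 102 in sham HIPP and 103 and 117 in PFC. Dynlt1f, with 130 and 92 reads in CHF and sham HIPP, lies just below it.

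Across all motors, the share that differed between LV and brain lay near that of other genes. Of 64 motors with enough reads, 19 were higher and 26 lower in LV (70.3%), where 75.6% of all 17411 features passed the same test, 37.2% higher and 38.4% lower. Among features past the threshold by a log2 difference of 1 or more, 15 motors were higher and 22 lower, where the shares of all features were 29.9% and 29.7%. The median difference of the motors was -0.34, beside -0.04 for all features. The plot of motors between LV and brain gives each with its standard error.

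**Figure D3:**
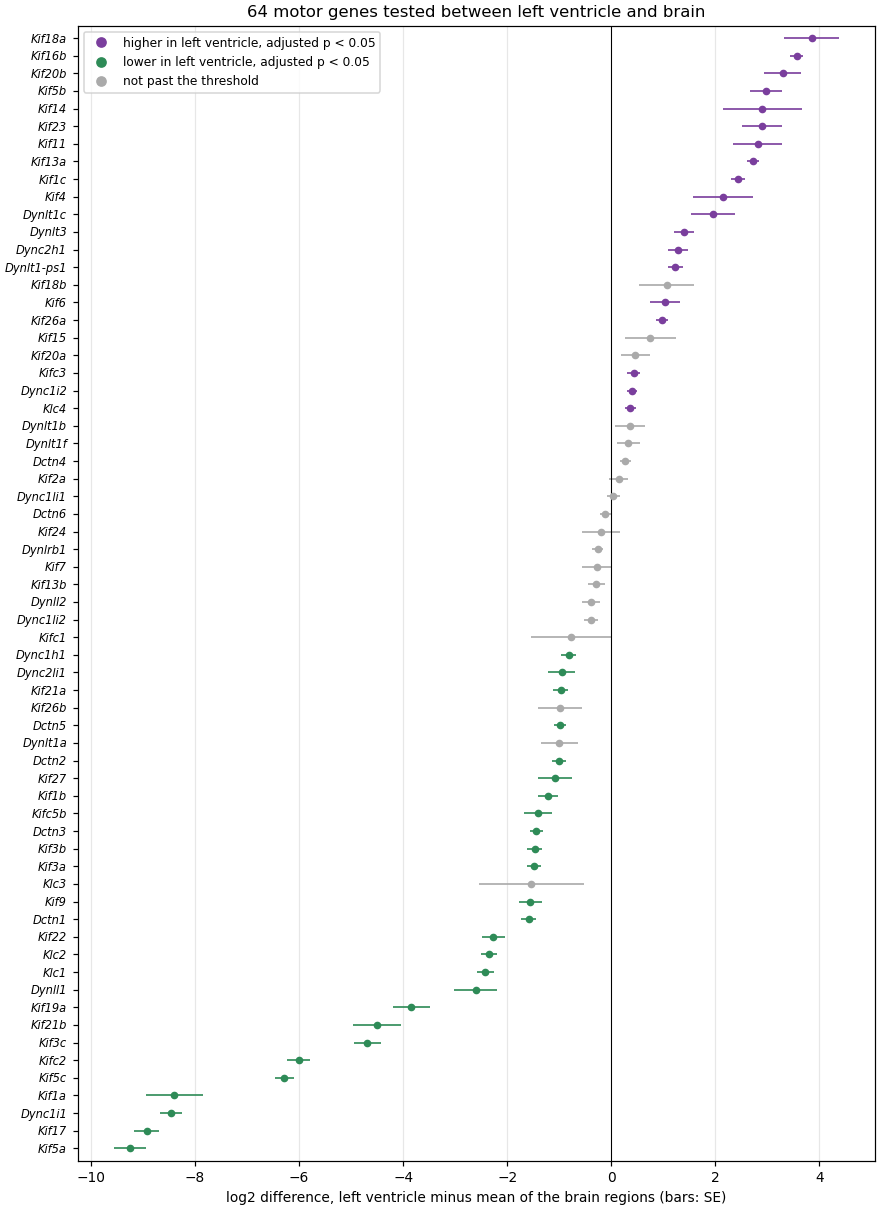
Log2 difference, LV minus the mean of HIPP and PFC, of the 64 motor genes tested with edgeR, with bars for the standard error and colors for adjusted p under 0.05 in either direction. The lowest are Kif5a (-9.25), Kif17 (-8.93), Dync1i1 (-8.47) and Kif1a (-8.40), and the highest are Kif18a (3.85) and Kif16b (3.56).

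Kinesin-2 motors (Kif3a, Kif3b, Kif3c and Kif17) work in cilia, axons and dendrites. Kif17, which carries glutamate receptors in dendrites, had 3 unique reads in CHF and 1 in sham LV, against 1095 to 1682 in the brain libraries. Its fitted log2 difference of -8.93 (SE 0.24, adjusted p = 3.95e-05) rests on these 4 reads and moves with the prior count of the fit. Kif3c, which pairs with Kif3a mainly in neurons, had 455 unique reads in CHF and 188 in sham LV, against 9172 to 11495 in the brain libraries (log2 difference -4.69, SE 0.25, adjusted p = 0.00012). Kif3a and Kif3b, the subunits found in most ciliated cells, were lower in LV by less (log2 differences -1.48 and -1.47, adjusted p = 0.00056 and 0.000658).

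Promoters of Kif17 and Kif5c, both expressed mostly in the brain, are shown because each holds the cyclic AMP response element TGACGTCA, searched on both strands. Of 32851 RefSeq promoters of the same length (250 bases before to 50 after a gene start), 1.79% hold it, and 51 of the 71 motors have a promoter in the table. Besides Kif17 and Kif5c, the motors that hold it are Dctn3, Kif18a and Klc1, and of these Kif18a was higher in LV. The RefSeq sequences (GRCm38.p6) of Kif17 (chr4:138262001-138262300, plus strand) and Kif5c (chr2:49619036-49619335, plus strand) follow, 5′ to 3′, with the element in capitals.
Kif17: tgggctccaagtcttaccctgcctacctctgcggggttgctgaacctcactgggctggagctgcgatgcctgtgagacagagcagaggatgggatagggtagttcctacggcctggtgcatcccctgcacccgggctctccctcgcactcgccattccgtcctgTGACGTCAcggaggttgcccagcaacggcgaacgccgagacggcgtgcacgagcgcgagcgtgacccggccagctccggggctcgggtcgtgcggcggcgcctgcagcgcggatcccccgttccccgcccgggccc
Kif5c: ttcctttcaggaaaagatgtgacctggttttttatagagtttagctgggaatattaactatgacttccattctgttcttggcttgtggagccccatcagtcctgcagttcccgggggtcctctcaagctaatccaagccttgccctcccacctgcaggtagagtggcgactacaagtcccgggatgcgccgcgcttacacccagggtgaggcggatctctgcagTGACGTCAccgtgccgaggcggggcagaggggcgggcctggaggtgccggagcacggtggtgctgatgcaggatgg

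Kinesin-3 motors carry vesicles and endosomes, and they split between the tissues. Kif1a, which moves synaptic vesicle precursors along axons, had an RPKM of 0.0978 in CHF and 0.0302 in sham LV, against 19.4 to 24.8 in the brain (log2 difference -8.40, SE 0.54, adjusted p = 0.000189). Kif1c, its relative of wider expression, had an RPKM of 28.2 in CHF and 28.9 in sham LV, against 4.86 to 6.82 in the brain (log2 difference 2.43, SE 0.13, adjusted p = 0.000124). It had the second highest RPKM of all motors in LV, after the dynein light chain Dynll2. Kif16b and Kif13a, which serve endosomes, were higher in LV as well, by log2 differences of 3.56 (SE 0.12, adjusted p = 4.97e-05) and 2.73 (SE 0.11, adjusted p = 6.42e-05). Kif1b, a carrier of mitochondria and vesicles, was lower in LV (log2 difference -1.22, adjusted p = 0.00291). Kif13b was not past the threshold (-0.29, adjusted p = 0.16).

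The minus-end kinesin Kifc2, a gene with a short genomic span, had the highest RPKM of all motors in the brain, 110 in both HIPP libraries and 117 and 120 in CHF and sham PFC. Per kilobase of transcript, Dynll2, Kif5a and Klc1 lay above Kifc2 in each of the 4 brain libraries. In LV it had 1.56 in CHF and 1.63 in sham (log2 difference from brain -6.01, SE 0.21, adjusted p = 5.31e-05). Its relative Kifc3 was higher in LV (log2 difference 0.43, adjusted p = 0.032). Kif21b, a kinesin that regulates microtubule growth in neurons and immune cells, was lower in LV (-4.50, SE 0.46, adjusted p = 0.000757), and its paralog Kif21a by less (-0.97, adjusted p = 0.00241). Kif26a, another atypical kinesin, was higher in LV (RPKM 0.936 in CHF and 0.959 in sham LV, against 0.457 to 0.643 in the brain, log2 difference 0.97, adjusted p = 0.00134). Kif19a, which sets the length of motile cilia, had 3 to 6 reads in LV and was lower there (-3.84, adjusted p = 0.000515).

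Cytoplasmic dynein 1 was present in every library. Its heavy chain gene Dync1h1, the motor subunit itself, had an RPKM of 6.41 in CHF and 5.58 in sham LV, against 10.2 to 13.5 in the brain (log2 difference -0.82, adjusted p = 0.00529). Of the intermediate chains, which tie dynein to dynactin, 1 was nearly absent from LV and the other was present in all tissues. Dync1i1, the neuronal form, had 5 reads in CHF and 4 in sham LV, against 1858 to 2533 in the brain (log2 difference -8.47, SE 0.21, adjusted p = 3.95e-05). Dync1i2, the widely expressed form, was higher in LV by 0.40 (adjusted p = 0.0187). Its RPKM was 1.16 in CHF and 0.919 in sham LV, and the sham value lay within the brain range of 0.766 to 0.974. The light intermediate chains Dync1li1 and Dync1li2 were not past the threshold (adjusted p = 0.797 and 0.0544). The light chain Dynll2 had the highest RPKM of all motors in LV, 52.0 in CHF and 50.8 in sham, and 59.4 to 88.5 in the brain. Its near twin Dynll1 was lower in LV (log2 difference -2.61, SE 0.42, adjusted p = 0.00355). Of dynactin, Dctn1, the subunit that grips the microtubule, was lower in LV (-1.58, adjusted p = 0.000488), as were Dctn2, Dctn3 and Dctn5 (-1.01, -1.44 and -0.99, adjusted p = 0.00179, 0.000451 and 0.000969), while Dctn4 and Dctn6 were not past the threshold.

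The question whether HIPP and PFC use the same motors had an answer that turned on how the spread was estimated. With all 6 libraries in the fit, 0 of 64 motors differed (edgeR, adjusted p of 0.05), 7 had an unadjusted p under 0.05, DESeq2 called 0, and 0.862% of all features were called, 0.477% higher and 0.385% lower. With the 4 brain libraries alone, a fit chosen after seeing the data, 25 of 60 motors passed, 5 higher and 20 lower in HIPP, where 31.6% of all features passed, 15.1% higher and 16.4% lower. Kif17 had an RPKM of 1.14 in CHF and 1.11 in sham HIPP, against 1.86 and 1.75 in CHF and sham PFC (log2 difference -0.67, adjusted p = 8.2e-10 in the brain libraries alone). Kif21b and Kif5a were lower by a similar amount (-0.60 and -0.54, adjusted p = 5.1e-10 and 4.2e-07). In edgeR's fit with all 6 libraries the adjusted p of Kif17, Kif21b and Kif5a were 0.13, 0.62 and 0.38. The fit of the brain libraries alone has few libraries, so its spread is estimated largely across genes. The 5 that were higher in HIPP were Dynll1 (0.33), Kif1c (0.43), Kif26b (0.53), Kif19a (0.64) and Kif6 (0.80), a motor of cilia and flagella. In the fit with all libraries the lowest differences belonged to motors with 0 to 27 unique reads in a brain library, Kif14 (-1.89), Kif23 (-1.497), Kif15 (-1.09), Kif4 (-0.95) and Dynlt1a (-0.90), with adjusted p of 0.35 to 0.69. The highest were Kif6 (0.85), Kif18a (0.71), Kif19a (0.64), Kif26b (0.48) and Kif1c (0.42), with adjusted p of 0.35 to 0.82.

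In the CHF and in the sham pools taken separately, the regional difference had the same sign for 33 of the 43 motors measured in both regions. The share over all genes was not counted, so this number is not a trait of the motors. Kif5b had a log2 difference, HIPP minus PFC, of -0.72 in the CHF pools and 0.45 in the sham pools, the widest gap of the 43. Dynlt3 (-0.33 and 0.39) and Kif2a (-0.30 and 0.37) came next. These are the motors with the lowest ratios in HIPP, seen from the other side.

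**Figure D4:**
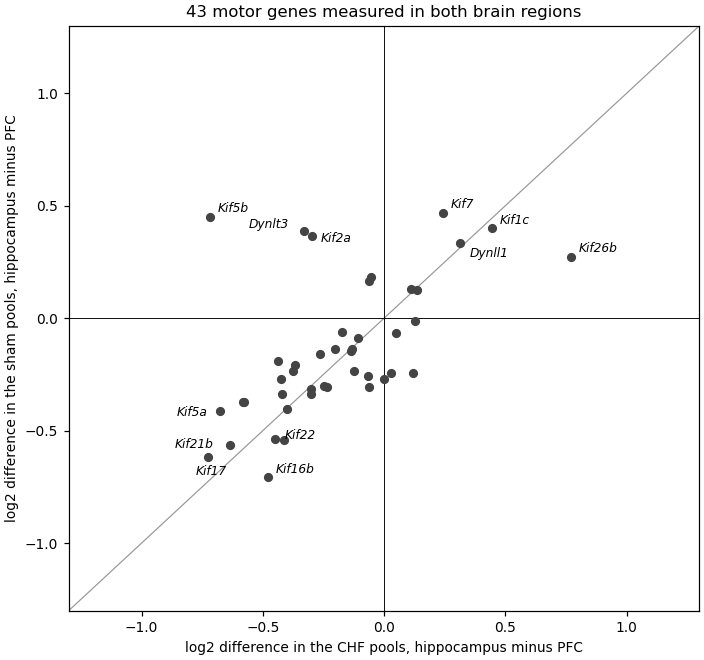
Log2 difference, HIPP minus PFC, in the CHF pools (horizontal) against the same difference in the sham pools (vertical) for the 43 motor genes measured in both regions, 1 point per gene, with the line of equality. Kif5b (-0.72 and 0.45), Dynlt3 and Kif2a lie far above the line, and Kif17 and Kif21b lie near it at the lower left.

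In LV, Dynll1 was the motor that rose past the threshold in CHF. It encodes a small light chain of dynein that also binds many other proteins (chromosome 5 from 115297110 to 115300990 of GRCm38). It had 739 unique reads in CHF and 167 in sham LV, an RPKM of 11.6 and 3.32 and a log2 ratio of 1.80 (95% counting interval 1.54 to 2.04). In HIPP it had an RPKM of 52.5 in CHF and 51.0 in sham (log2 ratio 0.04), and in PFC 39.7 and 42.6 (-0.10). The CHF library of LV thus lay above the sham one and still below every brain library. Between 70.7 and 75.2% of its reads were unique in the 6 libraries, and from unique reads alone the LV ratio was 1.81. Dynll2, which encodes a nearly identical protein, had a ratio of 0.03 in LV. Its RPKM was 4.50 times that of Dynll1 in CHF and 15.3 times in sham LV, and per kilobase of transcript its level was 26.5 and 89.2 times that of Dynll1 in CHF and sham LV. The 8 fibroblast and matrix markers summed to 8017 CPM in CHF and 948 in sham LV, and the 10 macrophage markers to 566 and 188. Their part in the ratio of Dynll1 was not tested.

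Other groups of LV motors stayed under the threshold and differed in where they lay around the median of all measured genes, 0.22. The 3 measured kinesin-2 genes had ratios of 0.46 for Kif3a, 0.64 for Kif3b and 0.87 for Kif3c, just short of the threshold, and all of them lay above that median. Kif3c overlaps 1110002L01Rik on the other strand, and 74.6% and 72.3% of its reads were unique in CHF and sham LV, so its ratio is uncertain. Of cytoplasmic dynein 1, 4 of 4 measured chains lay above 0, where 71.2% of all measured genes did. Of these chains 3 lay above the median and 3 above 0 with TMM scaling. The highest were Dync1li1 and Dync1li2 (both 0.60). The 6 dynactin subunits had ratios of 0.11 to 0.36, of which 3 lay above the median and 2 above 0 with TMM scaling, which put the median of all measured genes at -0.05. The 5 measured kinesin-3 genes all lay below 0, from -0.20 for Kif1b to -0.04 for Kif1c. Kif6 had the lowest ratio, -0.89, with 123 reads in CHF and 174 in sham (interval -1.21 to -0.52), just short of the threshold in the other direction. It passed the threshold with TMM scaling (-1.13) and with ratios centred on the median of all genes (-1.11). The next lowest were Kif21a (-0.24), Kif1b (-0.20), Kifc3 (-0.17) and Kif16b (-0.15).

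The rule of 100 reads in both pools leaves out 6 motors of LV that reached 100 reads in CHF only. With 100 reads asked of either pool, 6 of 39 motors were higher and 0 lower in CHF, where 16.8% of all genes were higher and 1.71% lower. They are Dynll1 and 5 of these 6. Kif26b had 277 unique reads in CHF and 54 in sham LV (log2 ratio of RPKM 1.96), Kif21b had 263 and 59 (1.80), and Kif1a had 187 and 45 (1.69). Kif7, a regulator of Hedgehog signaling in cilia, had 230 and 73 (1.295), and Dync2li1 had 180 and 59 (1.26). Dynlt1f, the sixth, had 105 and 83 (0.26). Of the 10 neuron markers, Gad2 had 0 reads in both LV libraries. The other 9 had a higher CPM in CHF, where 70.6% of all 20984 genes with a read did. Their summed level was 42.8 in CHF and 26.8 in sham. Gad1, Snap25, Syt1, Rbfox3, Nefl and Nefm had only 1 to 7 reads in CHF and 0 to 4 in sham LV. Slc17a7, Stmn2 and Eno2 held most of the reads of these markers. The 10 macrophage markers summed to 566 CPM in CHF and 188 in sham LV. The part of either marker set in the ratios of Kif1a and Kif21b was not tested.

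The 13 kinesins of mitosis were rare in every library. None reached 100 reads in LV, and in the brain Kif22 alone was measured. In LV, 13 of 13 had a higher CPM in CHF than in sham, where 70.6% of the 20984 genes with a read did. With TMM scaling 10 of 13 were higher, beside 53.8% of all. Kif4, a chromosome-bound kinesin, had 53 reads in CHF and 12 in sham LV. Kif11, which pushes spindle poles apart, had 59 and 19. Kif23, which bundles microtubules in the midzone for cytokinesis, had 46 and 30, and Kifc1, which focuses spindle poles, had 36 and 2. Summed over the 13 genes, the level was 25.5 CPM in CHF and 13.4 in sham LV, a log2 ratio of 0.92 (counting interval 0.69 to 1.16). TMM scaling lowers every log2 ratio of CPM in LV by 0.29 and put this summed ratio at 0.63. In HIPP the sums were 18.4 and 16.4, and in PFC 22.7 and 21.4, in CHF and sham. The 14 proliferation genes, among them Mki67 and Top2a, summed to 71.1 CPM in CHF and 56.5 in sham LV (log2 ratio 0.33), and 13 of the 14 had a higher CPM in CHF. The exception, Cenpf, had 72 reads in CHF and 377 in sham, and without it, a choice made after its values were seen, the sums were 67.5 in CHF and 32.4 in sham (log2 ratio 1.06). Kif20a overlaps Cdc23 and Brd8 on the other strand, and of their reads 22.9 to 37.3% were unique for Kif11 and 40.0 to 59.6% for Kifc1 and Kifc5b, so that these genes are uncertain.

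**Figure D5:**
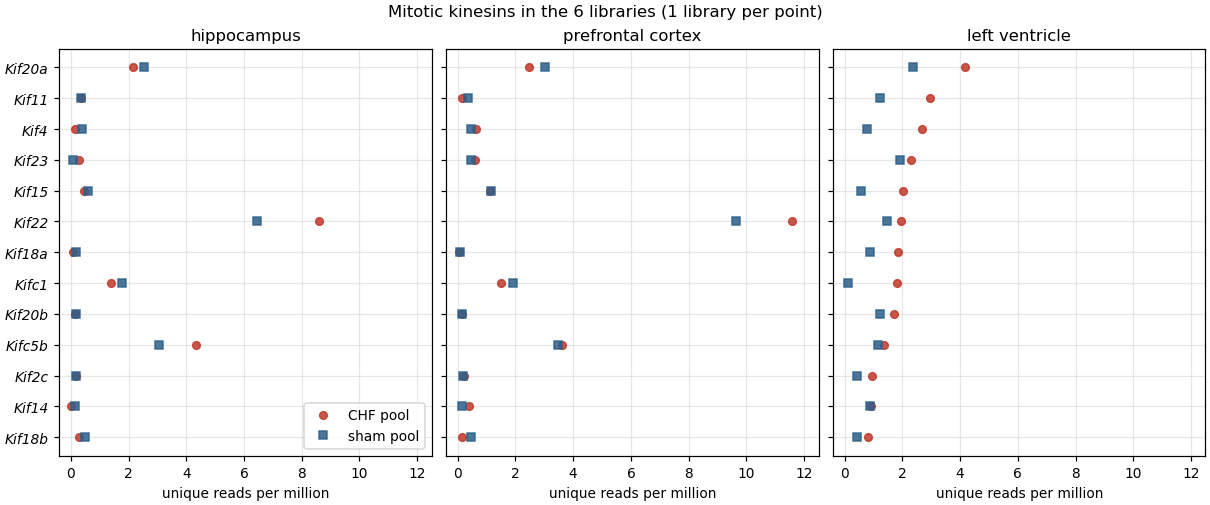
The 13 mitotic kinesins in HIPP, PFC and LV, by level in CPM, with circles for the CHF pool and squares for the sham pool (1 library per point). In LV every circle lies to the right of its square or on it, with sums of 25.5 in CHF and 13.4 in sham, and in the brain Kif22 stands apart from the rest.

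Between the tissues, 8 of 12 mitotic kinesins tested passed the threshold with edgeR, near the 75.6% of all features. Kif18a (3.85), Kif20b (3.29), Kif14 (2.90), Kif23 (2.89), Kif11 (2.81) and Kif4 (2.15) were higher in LV, with adjusted p of 0.000895 to 0.0214, and Kif22 (-2.26) and Kifc5b (-1.41) were lower. These differences rest on few reads, for Kif18a on 37 in CHF and 14 in sham LV and 1 to 4 in a brain library.

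Most promoters of mitotic kinesins share a sequence feature. The promoters and the motifs were chosen after their values were seen, so the shares below are a description and not an independent test. Of 12 with a promoter in the table, 11 hold TTTGAA, the letters of the cell cycle homology region (CHR), on either strand, and 8 hold CCAAT, beside 17.9% and 37.4% of all RefSeq promoters of that length. The other motifs searched, GGGCGG and TATAAA on both strands, are in 6 and 1 of the 12, beside 35.7% and 13.6% of all promoters, and TGACGTCA is in 1. Among the 58 promoters of 51 motors 25.9% hold TTTGAA, and the other motors with it are Dctn1, Kif1a, Kif26b and Kif27. A match says only that these letters are present. Promoters of Kif4 (chrX:100625815-100626114, plus strand), Kif11 (chr19:37376132-37376431, plus strand) and Kif23 (chr9:61946750-61947049, minus strand) of GRCm38.p6 are shown as examples, 5′ to 3′, with TTTGAA and CCAAT, or their complements TTCAAA and ATTGG, in capitals.
Kif4: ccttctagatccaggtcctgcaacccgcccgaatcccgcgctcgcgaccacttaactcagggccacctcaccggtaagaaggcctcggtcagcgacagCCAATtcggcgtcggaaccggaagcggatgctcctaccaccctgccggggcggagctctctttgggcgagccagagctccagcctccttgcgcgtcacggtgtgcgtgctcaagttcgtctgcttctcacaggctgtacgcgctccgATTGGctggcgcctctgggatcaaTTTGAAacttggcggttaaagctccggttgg
Kif11: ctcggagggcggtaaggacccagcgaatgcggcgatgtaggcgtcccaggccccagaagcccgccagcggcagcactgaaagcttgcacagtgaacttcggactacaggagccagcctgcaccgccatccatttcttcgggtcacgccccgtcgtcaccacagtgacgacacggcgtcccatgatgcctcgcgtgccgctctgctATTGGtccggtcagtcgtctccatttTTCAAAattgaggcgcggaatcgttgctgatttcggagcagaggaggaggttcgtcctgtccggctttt
Kif23: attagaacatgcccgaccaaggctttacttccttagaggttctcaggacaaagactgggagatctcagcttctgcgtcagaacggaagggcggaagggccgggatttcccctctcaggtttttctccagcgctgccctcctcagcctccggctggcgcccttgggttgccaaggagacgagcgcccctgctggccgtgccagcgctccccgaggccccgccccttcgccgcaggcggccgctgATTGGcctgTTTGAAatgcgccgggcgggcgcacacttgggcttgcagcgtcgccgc

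The proteins that work with the motors were followed as well. Of 28 cargo adaptors and regulators, 25 were measured in HIPP, 24 in PFC and 21 in LV, and 0, 0 and 2 were regulated. The 2 of 21 in LV lie near the 12% of all measured genes. In LV Mapk8ip1, a scaffold that binds kinesin light chains, was higher, with 328 reads in CHF and 111 in sham (log2 ratio 1.21). Hook1, an adaptor between dynein and endosomes, was lower, with 183 and 292 reads (-1.02). The lowest adaptor of HIPP was Pafah1b1, which encodes the dynein regulator LIS1, with -0.58 (1775 reads in CHF and 2376 in sham). The actin-related and capping subunits that complete dynactin lay above 0 in LV for 6 of 6 genes, where 71.2% of all measured genes did. Their median was 0.28, 3 lay above the median of all measured genes, and 3 lay above 0 with TMM scaling.

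The remaining members add little. Kif12, a kidney kinesin, Kif2b, a spindle kinesin, and the pseudogene Kif4-ps had 0 unique reads in all 6 libraries, and Kif22-ps had 1 in all. Dynlrb2, a light chain of ciliated cells and testis, had 4 to 18 reads in the brain and 0 in both LV libraries. The pseudogene Dynlt1-ps1 had 129 to 367 unique reads, but its listed RPKM is 0 because the tables give no length for it, as for the other 3 pseudogenes. Its reads are uncertain, since 41.7 to 50.2% of them were unique, and the same holds for Dynlt1a, Dynlt1b, Dynlt1c and Dynlt1f (22.7 to 42.2%). In all, 32 motors were measured in all 3 tissues and 26 in none.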

How the data were processed

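The authors aligned stranded, ribosome-depleted RNA reads of 6 pools with CLC Genomics Workbench (version not given in the sources used here) to GRCm38.p1. The deposited counts are reads per gene (unique, total and exonic), and the deposited RPKM values are exon reads scaled by gene length and total gene reads. For 67 of 67 motors with a length it is the genomic span, introns included, so long genes have low RPKM. Whether the counting used strand is not stated, so antisense overlaps are uncertain. Tables of the authors' own comparisons were not used. The names of the deposited tables give each tissue a lane code of its own, whereas the methods describe 4 libraries pooled over 2 lanes, so lane and tissue may not be separable.

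CHF against sham has 1 library per group and no p-value. The 95% intervals (exact, Clopper-Pearson) of the CHF share of unique reads cover counting error only. Tissues were compared with edgeR 4.0.16 (TMM, quasi-likelihood, tissue plus pool) on unique gene reads. There the CHF and sham pools serve as replicates of a tissue, and the difference between them that all tissues share is fitted. The p-values thus measure the spread left over, which includes a CHF response that differs between tissues. Differences of CHF from sham correlated between tissues by 0.011 to 0.019. Alternatives were DESeq2 1.42.0, other scalings, read minimums, thresholds, trends (lowess fraction 0.3) on GC content, length and abundance, and each library left out. After seeing the data 3 were added: library totals that leave out the 10 most abundant features, levels per transcript length (GENCODE vM21) and the 4 brain libraries alone. Scripts (R 4.3.3, Python 3.11.15) were tested on simulated counts.

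The motors, lists and naming rule were chosen with earlier results of these data known. Named are regulated motors, the 5 highest and 5 lowest of each comparison, the highest RPKM of each group, the kinesin-1 heavy chains and those nearest to a limit. Others, and the promoters and motifs, were chosen after their values were seen.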

Additional observations from a re-analysis of the deposited data

Results flagged for a closer look

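Kif5b had ratios of opposite sign in HIPP and LV: its log2 ratio of RPKM, CHF over sham, was -1.003 in HIPP and 0.64 in LV. With TMM scaling its LV ratio was 0.38. In PFC its ratio was 0.076, with a counting interval (-0.08 to 0.28) that includes equality. Dynll1 had a log2 ratio of 1.80 in LV and -0.10 in PFC. With 1 library per group, neither difference between tissues was tested.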

How the results depend on the processing

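Kif5b in HIPP stayed past the threshold in each alternative, from -1.05 to -0.93 on the log2 scale, and Dynll1 in LV ranged from 1.496 to 1.85 but was not measured with a minimum of 200 reads, which left 0 motors higher in LV. In LV the count of higher motors was 14, 5 and 6 with a minimum of 1 read, of 50 reads and of 100 reads in either pool, and 2 with CPM, where Kif3c reached 0.93, or with a threshold of 0.8. One read as minimum gave 2 higher and 3 lower motors in HIPP, and 1 higher and 1 lower in PFC. In LV 1 motor, Kif6, was lower with TMM, DESeq2 factors, centring, totals without 10 features and a threshold of 0.8. The LV median of 0.19 became -0.088 (TMM), -0.10 (DESeq2 factors), -0.035 (centred), 0.0087 (totals without 10 features) and 0.34 (minimum of 1 read). The cause was not tested for Kif6.

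Between LV and brain, leaving out 1 library at a time gave 12 to 23 motors higher and 23 to 35 lower, the fewest higher without the sham PFC library. Without the replicate block for the pool, 20 were higher and 28 lower. Differences of the CHF from the sham pools hardly correlated between tissues (0.011 to 0.019). Between HIPP and PFC, 0 to 5 were higher and 0 to 18 lower, with 5 and 18 when the CHF or the sham LV library was left out, and 5 and 20 in the brain libraries alone. Depth limits the mitotic kinesins of LV and some neuronal motors there, such as Kif1a and Kif21b, which rest on under 100 reads in sham.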
